A study of Homo sapiens with 24 samples.

Results

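The response to the drug labelled OTX was compared between 2 acute myeloid leukaemia (AML) lines grown in medium with folic acid, gene by gene, in 12 of the 24 poly(A)-selected RNA sequencing libraries of the series. The 4 groups, of 3 libraries each, were IMS-M2 with DMSO, IMS-M2 with OTX, U937 with DMSO and U937 with OTX, where DMSO is the solvent control and all 4 groups received folic acid. OTX is taken here as OTX015 (birabresib), from knowledge of the study; the labels give neither a dose nor a duration. IMS-M2 is an AML line that carries mutated NPM1, and U937 is a monocytic leukaemia line, so each kind of leukaemia is represented by 1 established line. The other 12 libraries, of the same 2 lines and 2 treatments grown without folic acid, were used only to set the same contrast beside this one.

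The quantity described is the line difference, which is OTX minus DMSO in U937 minus OTX minus DMSO in IMS-M2, each taken on the log2(FPKM + 1) scale. A positive value means that the U937 change lay above the IMS-M2 change. A single value in brackets after a gene's name or levels is its line difference on this scale, called unless stated otherwise. Genes were kept when their DMSO mean was at least 1 FPKM in both lines, which 9834 of 23595 genes met; 10908 genes met it in IMS-M2 and 10729 in U937. The genes nearest the threshold were SNAI3-AS1 inside it, with a lower DMSO mean of 1.00043 FPKM, and ADRB1 outside it, with 0.999523 FPKM. The kept genes were chosen on their DMSO levels and not on their response, so the line difference could be tested.

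OTX015 belongs to the BET inhibitors, which occupy the bromodomains of BET proteins and displace these proteins from acetylated chromatin. BET proteins help bring the elongation kinase P-TEFb to genes, and in AML cells BET inhibitors are known for lowering MYC and the growth genes below it, and for raising HEXIM1, the protein that holds P-TEFb inactive. Which other genes fall or rise depends on the enhancers that a given cell uses, and myeloid identity genes are among those driven by large enhancers.

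The sum of FPKM over genes ranged from 535707 to 620930 in these libraries, and 10418 to 10894 genes reached 1 FPKM in each. Read depth is unknown, because FPKM keeps no total, and the low values showed no common step from which whole reads could be recovered. Pearson's r of log2 values within a group was 0.975 to 0.994. Nothing in the labels tells whether libraries of 1 group were grown as separate cultures; the spread behind every p-value is that between libraries and may be technical. Myeloid origin was checked against 9 shared myeloid markers, of which 8 reached 1 FPKM in IMS-M2 with DMSO and 9 in U937 with DMSO. Of 28 monocyte and macrophage genes, 20 reached 1 FPKM in U937 with DMSO and 10 in IMS-M2 with DMSO, where S100A8, S100A12, FCN1, MARCO, MSR1 and FCGR3A were listed at 0. Markers of other lineages were summed in the DMSO libraries. The 15 lymphoid genes summed to 76.3 to 83.0 FPKM in IMS-M2 and 293 to 333 FPKM in U937. Most of the U937 sum was NKG7, at a mean of 225 FPKM, and CD4, at 78.8 FPKM, while CD3D, CD8A and MS4A1 were listed at 0. In IMS-M2 the largest were CD79B, at 33.1 FPKM, and CD79A, at 21.4 FPKM. The 15 stromal and epithelial genes summed to 112 to 116 FPKM in IMS-M2 and 6.57 to 7.47 FPKM in U937. For the 15 erythroid and megakaryocyte genes the sums were 68.2 to 85.2 and 8.89 to 10.01 FPKM.

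The lines shared part of the response and differed widely in the rest. The line difference passed the threshold (limma, Benjamini-Hochberg adjusted p below 0.05) for 4368 kept genes, 44.4% of them, with 2239 higher (22.8%) and 2129 lower (21.6%). A difference of at least 1 on the log2 scale was called for 933 genes (9.49%), 566 higher (5.76%) and 367 lower (3.73%). Within the lines, OTX changed 5656 kept genes in IMS-M2 (57.5%), 2755 up (28%) and 2901 down (29.5%), and 5536 in U937 (56.3%), 2856 up (29%) and 2680 down (27.3%). OTX and DMSO libraries did not overlap for 62.8% of kept genes in IMS-M2 and 61.4% in U937. In bulk RNA, a lower level in every cell and fewer cells that carry the transcript cannot be told apart.

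Of the 3460 genes called in both lines, 2852 (82.4%) moved in the same direction. Across the 9834 kept genes, which share libraries, the changes in the lines had a Pearson's r of 0.414 and a Spearman's rho of 0.409. The other 608 genes (6.18% of kept genes) were called in opposite directions and for the difference: 365 rose in U937 and fell in IMS-M2, and 243 fell in U937 and rose in IMS-M2. Most called differences came from a change called in 1 line only, with 662 genes down and 704 up in IMS-M2 alone, and 656 down and 670 up in U937 alone.

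**Figure D1:**
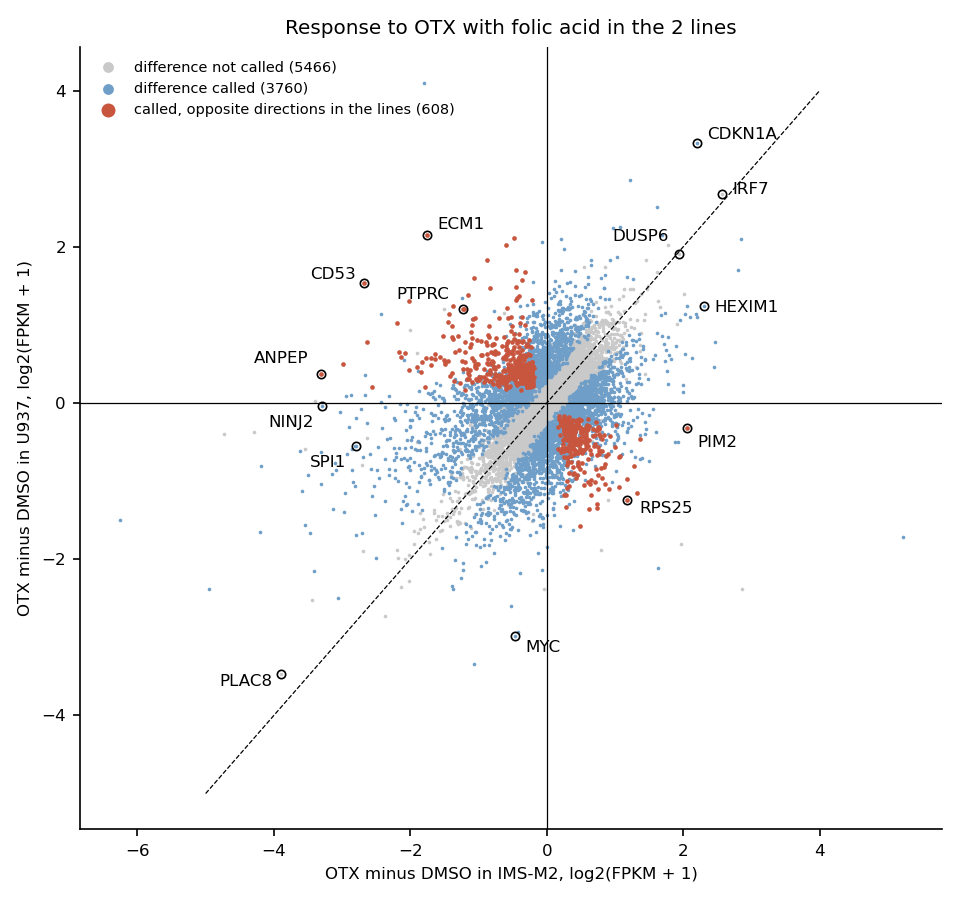
OTX minus DMSO in IMS-M2 (horizontal axis) against OTX minus DMSO in U937 (vertical axis) for the 9834 kept genes, both in log2(FPKM + 1). Genes on the dashed line of equal change had no line difference; the 608 genes called in opposite directions lie in the upper left and lower right quadrants, and MYC lies far below the line while CD53, ECM1 and ANPEP lie far above it.

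MYC fell in both lines, and far more in U937. MYC encodes the transcription factor that drives ribosome production and cell growth. In IMS-M2 its level was 184, 202 and 205 FPKM with DMSO and 142, 141 and 142 FPKM with OTX; in U937 it was 192, 207 and 188 FPKM with DMSO and 22.6, 25.2 and 24.1 FPKM with OTX. The DMSO ranges of the lines overlapped, in separately deposited tables, no OTX library reached any DMSO library of its line, and the IMS-M2 OTX libraries stayed well above those of U937. The changes were -0.47 in IMS-M2 and -2.98 in U937 on the log2 scale, a line difference of -2.51 with an SE of 0.10 (limma, Benjamini-Hochberg adjusted p = 1.22e-08).

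HEXIM1 and CDKN1A, which rose in both lines, differed in opposite directions. HEXIM1 stood at 7.97, 6.16 and 6.18 FPKM in IMS-M2 with DMSO and 37.7, 38.7 and 35.3 FPKM with OTX, and at 8.84, 11.3 and 9.96 FPKM in U937 with DMSO and 30.8, 23.9 and 21.1 FPKM with OTX. Its line difference was -1.06 with an SE of 0.19 (limma, Benjamini-Hochberg adjusted p = 0.001), with rises of 2.31 in IMS-M2 and 1.24 in U937 on the log2 scale. CDKN1A, the cyclin-dependent kinase inhibitor p21, went from 29.8, 28.2 and 27.6 FPKM to 140, 126 and 138 FPKM in IMS-M2, and from 2.73, 3.14 and 3.07 FPKM to 45.7, 36.2 and 35.7 FPKM in U937. Every OTX library lay above every DMSO library of its line for both genes, and the log2 rise of CDKN1A was larger in U937 by 1.13 with an SE of 0.14 (limma, Benjamini-Hochberg adjusted p = 4.89e-05), or by 0.41 with a pseudocount of 5.

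BRD2, itself a BET protein, rose in both lines, from 75.6, 80.0 and 91.3 FPKM to 148, 136 and 155 FPKM in IMS-M2 and from 50.5, 44.7 and 46.0 FPKM to 72.4, 65.6 and 74.2 FPKM in U937. Its line difference of -0.25 on the log2 scale was not called (limma, Benjamini-Hochberg adjusted p = 0.141). CDK6, a G1 kinase, was called in neither line (0.08 and -0.26), with a line difference of -0.34 that was not called (limma, Benjamini-Hochberg adjusted p = 0.205). With the within-group component described below removed, an alternative chosen after the data were seen, both line differences were called, at -0.36 for BRD2 and -0.72 for CDK6. CDK6 was then also called in each line, with changes of 0.28 in IMS-M2 and -0.45 in U937. In the libraries without folic acid, as deposited, both line differences were called, at -0.58 for BRD2 and -0.77 for CDK6. The line difference of BCL2, the apoptosis inhibitor, was -0.42 (limma, Benjamini-Hochberg adjusted p = 0.0415); its log2 change was 0.29 in IMS-M2 and -0.12, not called, in U937, and the line difference lost its call in 7 of the 12 fits that each left out 1 library, with values of -0.45 to -0.31 there. SERPINI1, another gene used as a marker of BET inhibition, was not kept, since its DMSO means were 0.467 and 0.696 FPKM in IMS-M2 and U937. Among the 9 kept genes of P-TEFb and the BET family, the difference was higher for 1 (11.1%) and lower for 3 (33.3%). Over all kept genes 22.8% were higher and 21.6% lower. The higher gene was CDK9, the kinase of P-TEFb, with 0.85. LARP7, of the complex that holds P-TEFb inactive, had -1.39 but shares its locus with other annotated genes.

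**Figure D2:**
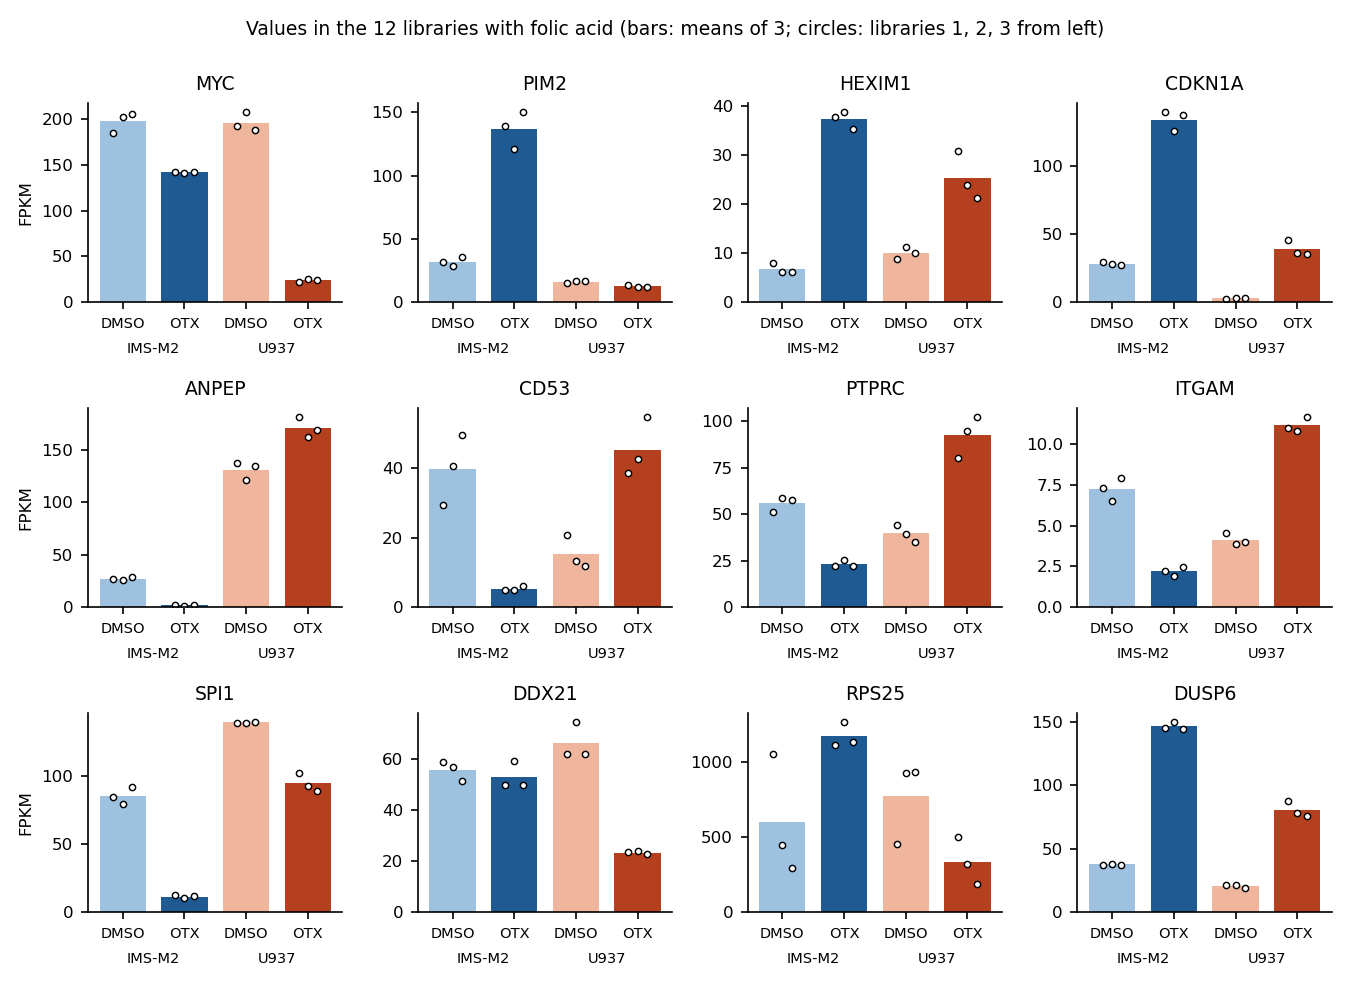
FPKM in each of the 12 libraries with folic acid for 12 named genes; bars are means of 3 libraries, circles are single libraries, and each panel starts at 0. MYC falls to 22.6 to 25.2 FPKM in U937 but stays at 141 to 142 FPKM in IMS-M2, while in RPS25 library 1 stands apart from libraries 2 and 3 in both DMSO groups.

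Genes of ribosome assembly fell in U937 and much less in IMS-M2. All 60 ribosome biogenesis factors of the list were kept. OTX lowered 59 of them in U937, with a median log2 change of -1.005, and in IMS-M2 lowered 29 and raised 3, with a median of -0.26. The line difference was lower for 49 and higher for none, with a median of -0.71, where over all kept genes 21.6% were lower and the median was 0.03. These lists were drawn up with earlier results of these libraries known, so the counts are descriptions.

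DDX21, an RNA helicase of ribosomal RNA transcription and processing, stood at 59.2, 57.0 and 51.5 FPKM with DMSO and 50.05, 59.5 and 49.9 FPKM with OTX in IMS-M2, and at 62.0, 74.7 and 62.3 FPKM and 23.6, 23.9 and 22.8 FPKM in U937. The IMS-M2 groups overlapped and those of U937 did not, and the line difference was -1.38 with an SE of 0.14 (limma, Benjamini-Hochberg adjusted p = 1.06e-05). PUS7, a pseudouridine synthase, went up in IMS-M2, from 11.6, 11.9 and 11.6 FPKM to 15.03, 16.6 and 15.6 FPKM, and down in U937, from 14.7, 18.5 and 16.0 FPKM to 8.17, 7.70 and 9.19 FPKM, for a line difference of -1.29. RRS1, which helps assemble the large subunit, fell in both lines, with log2 changes of -0.61 in IMS-M2 and -1.75 in U937, and NOLC1, a nucleolar chaperone of small nucleolar ribonucleoproteins, likewise, with -0.30 and -1.40. NPM1, the nucleolar protein mutated in IMS-M2 and a list member picked out after its values were seen, stood at 812, 884 and 832 FPKM and then 884, 1053 and 884 FPKM with OTX in IMS-M2, where the change was not called. In U937 it fell from 869, 1030 and 890 FPKM to 515, 516 and 485 FPKM.

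**Figure D3:**
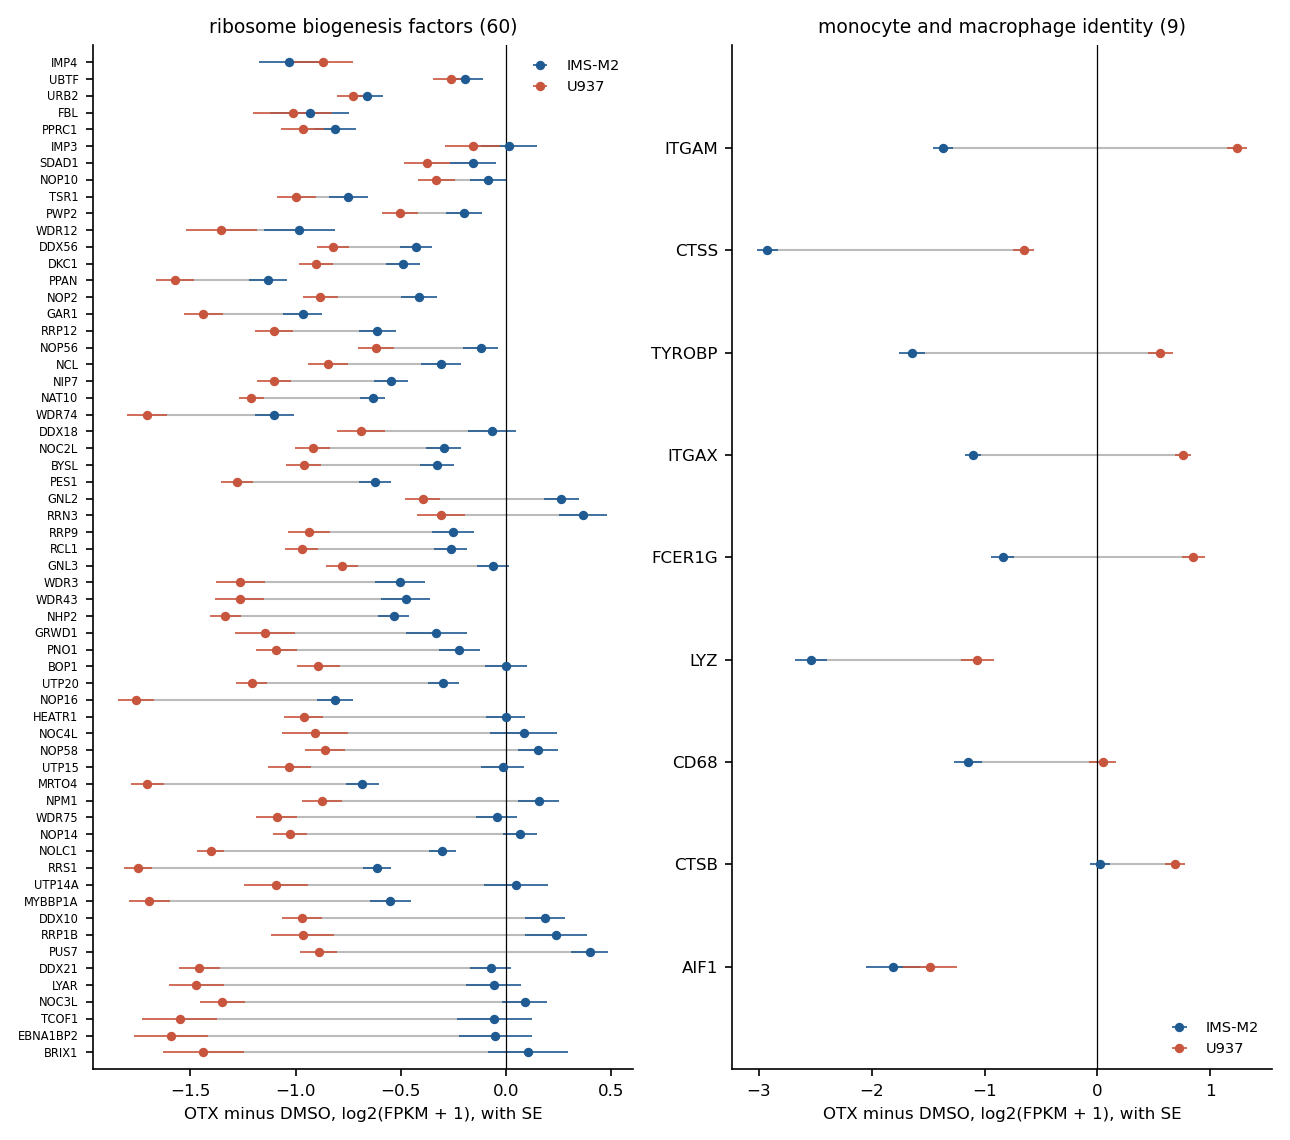
OTX minus DMSO in log2(FPKM + 1), with its SE, for the 60 ribosome biogenesis factors (left) and the 9 kept monocyte and macrophage genes (right) in IMS-M2 (blue) and U937 (red). In U937, 59 of the 60 ribosome factors were called lower while many IMS-M2 points lie near 0; on the right, 8 of the 9 IMS-M2 points lie below 0 and 6 U937 points lie above it.

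MYC and its partner MAX bind the E-box CACGTG, and many of these promoters hold it near the start of transcription. Promoters of 300 bases, from 250 before to 50 after the RefSeq start (GRCh38.p14, whereas the deposited values refer to hg19), were matched by symbol for 8006 kept genes and 51 of the 60 ribosome factors. CACGTG, a palindrome and so the same on both strands, was present in 22 of the 51 (43.1%), against 877 of the 8006 kept promoters (10.95%) and 7.43% of all 27305 RefSeq promoters. Among genes with a line difference of -1 or below, whatever their list, 33 of 287 promoters held it (11.5%), and among those that fell in U937 and rose in IMS-M2, 17 of 205 (8.29%). It lay in the 50 bases after the start in 15 of the 22 (68.2%) and in 105 of the 877 (11.97%). The windows below, 30 bases around the motif in capitals, show it close to the start in 3 members and far upstream in EBNA1BP2; they are given 5' to 3' on the gene's strand. They lie at chr10:94362903-94362932 (minus strand, 20 bases after the start), chr7:105522226-105522255 (minus, 29 after), chr1:19251807-19251836 (plus, 15 after) and chr1:43172790-43172819 (minus, 237 before).
NOC3L: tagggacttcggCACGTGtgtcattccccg
PUS7: gtcgctgcgccgCACGTGtgcgagcccggc
MRTO4: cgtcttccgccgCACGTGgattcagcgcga
EBNA1BP2: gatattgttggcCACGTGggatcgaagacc
Apart from PUS7 these were chosen among the lowest line differences with a motif, after their values were seen: -1.44 for NOC3L and -1.02 for MRTO4, both factors of large-subunit assembly, and -1.54 for EBNA1BP2, whose locus is shared with another annotated gene. A match of letters is a description and not a measured binding site.

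The structural proteins of the ribosome were called in nearly the same share as all kept genes, 44.3% against 44.4%, but mostly as lower. Of 79 cytosolic ribosomal protein genes, the difference was lower for 30 (38%, against 21.6%) and higher for 5 (6.33%, against 22.8%). The median was -0.22 on the log2 scale, and CACGTG was present in 3 of 63 matched promoters (4.76%). With the within-group component removed, the difference was lower for 39 genes and higher for none, with a median of -0.33. Without folic acid it was lower for 47 and higher for 1, with a median of -0.57. Several were uneven within groups. RPL24 stood at 928, 591 and 437 FPKM in IMS-M2 with DMSO and 1233, 1471 and 1188 FPKM with OTX, and at 800, 1356 and 1167 FPKM in U937 with DMSO and 669, 509 and 392 FPKM with OTX. RPS25 had 1053, 445 and 298 FPKM, then 1115, 1267 and 1134 FPKM with OTX in IMS-M2, and 455, 930 and 932 FPKM, then 498, 319 and 185 FPKM with OTX in U937. In IMS-M2 the RPS25 value of DMSO library 1 lay close to the OTX libraries, and in U937 that of DMSO library 1 fell within the range of the OTX libraries. The line differences were -2.13 with an SE of 0.39 for RPL24 and -2.42 with an SE of 0.64 for RPS25 (limma, Benjamini-Hochberg adjusted p = 0.00103 and 0.00917). Both have near-identical processed copies elsewhere in the genome, and RPS25 shares its locus with other annotated genes, so their levels are uncertain. Among 76 mitochondrial ribosomal protein genes the difference was lower for 43 (56.6%, against 21.6% of all kept genes) and higher for 6, with a median of -0.45; with the within-group component removed it was lower for 37, with a median of -0.29. Among 33 subunits of RNA polymerases I and III and their factors the difference was lower for 11 (33.3%) and higher for 1 (3.03%), with a median of -0.19.

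ATF4 and several genes that supply amino acids, charged tRNAs and purines fell further in U937. ATF4, the transcription factor of the amino acid response, did not move in IMS-M2 beyond the spread, with 229, 223 and 226 FPKM and then 227, 217 and 240 FPKM. In U937 it fell from 284, 281 and 291 FPKM to 112, 103 and 99.2 FPKM, with no overlap, for a line difference of -1.45 with an SE of 0.10 (limma, Benjamini-Hochberg adjusted p = 6.5e-07). SLC3A2, the shared chain of amino acid exchangers, had -1.32, and CTH, the enzyme that makes cysteine, had -0.94. ASNS, asparagine synthetase, rose in IMS-M2 from 37.6, 55.6 and 53.6 FPKM to 70.4, 76.4 and 71.6 FPKM and fell in U937 from 6.09, 5.09 and 5.14 FPKM to 3.14, 3.57 and 3.97 FPKM. Over the 27 kept genes of serine synthesis and the ATF4 response, the difference was lower for 14 (51.9%) and higher for 3 (11.1%). Over all kept genes 21.6% were lower and 22.8% higher. The median of the list was -0.39, and its higher members included PCK2 (0.56) and VLDLR (1.10).

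None of the 20 cytosolic aminoacyl-tRNA synthetase genes had a higher difference and 11 (55%) had a lower one, with a median of -0.42. Over all kept genes the shares were 22.8% and 21.6%. GARS, the glycyl-tRNA synthetase, stood at 105, 121 and 115 FPKM and then 97.5, 104 and 98.4 FPKM in IMS-M2, which was not called, and fell from 176, 165 and 159 FPKM to 86.5, 90.0 and 88.7 FPKM in U937. The groups did not overlap in either line, and the line difference was -0.73 on the log2 scale. In purine and pyrimidine synthesis, 8 of 22 genes had a lower difference (36.4%) and 12 were not called, with a median of -0.25; TYMS, thymidylate synthase (0.84), and IMPDH1, of guanine nucleotide synthesis (0.87), were higher. TYMS lost its call with the replicate block and in 4 of the 12 fits that each left out 1 library. The purine enzymes PFAS (-0.97), GART (-0.96) and PAICS (-0.88) fell in both lines and more in U937; GART, for example, fell from 93.6, 96.6 and 88.4 FPKM to 73.8, 78.1 and 72.8 FPKM in IMS-M2 and from 89.7, 87.4 and 81.7 FPKM to 35.3, 35.3 and 35.5 FPKM in U937. Of 21 folate and methionine cycle genes, 5 had a lower difference (23.8%, near the 21.6% of all kept genes) and 3 a higher one. Their median was -0.15. Without folic acid it was -0.41, against -0.04 over all kept genes. MTHFD1L, the mitochondrial enzyme that releases formate, fell by 1.22 in IMS-M2 and by 2.13 in U937.

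The 10 highest called differences with at least 5 FPKM in both lines were those of CD53, ECM1, ANPEP, CLEC12A, S100A6, EVI2B, NINJ2, LAIR1, SLA and IRF5. All 10 fell in IMS-M2; in U937, IRF5 and NINJ2 were not called, SLA fell and the others rose. CD53, a leukocyte tetraspanin, went from 29.5, 40.5 and 49.5 FPKM to 4.87, 4.90 and 6.14 FPKM in IMS-M2 and from 20.8, 13.3 and 11.7 FPKM to 38.6, 42.5 and 54.7 FPKM in U937. All groups were apart within each line, in opposite directions, and the line difference was 4.20 with an SE of 0.31 (limma, Benjamini-Hochberg adjusted p = 9.35e-07). ANPEP, the myeloid aminopeptidase CD13, went from 27.3, 25.7 and 28.6 FPKM to 2.07, 1.43 and 2.05 FPKM in IMS-M2, and in U937 from 138, 122 and 134 FPKM to 181, 163 and 169 FPKM. Its line difference was 3.69. ECM1, an extracellular matrix protein, went from 6.65, 6.36 and 7.18 FPKM to 1.31, 1.02 and 1.57 FPKM in IMS-M2 and from 11.4, 10.3 and 12.3 FPKM to 57.3, 49.4 and 53.9 FPKM in U937, a line difference of 3.90.

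The same shape, down in IMS-M2 and up in U937, was called for CLEC12A (3.48), S100A6 (3.42), LAIR1 (3.22) and EVI2B (3.32). CLEC12A is an inhibitory lectin receptor of myeloid cells, S100A6 a calcium-binding protein and LAIR1 an inhibitory collagen receptor. The locus of EVI2B holds other annotated genes. With the within-group component described below removed, the U937 change of CLEC12A was 0.20 and not called, while the other rises stayed called. Without folic acid the U937 changes were -0.03 for CLEC12A and -0.06 for S100A6, but 0.67 for LAIR1 and 1.05 for EVI2B. S100A6 differed in level as well: it went from 7.05, 9.18 and 10.9 FPKM to 0.620, 0.719 and 0.442 FPKM in IMS-M2, and from 436, 339 and 433 FPKM to 730, 609 and 740 FPKM in U937, in tables that were deposited separately. IRF5, a transcription factor of macrophage activation, fell in IMS-M2 from 10.9, 8.998 and 10.02 FPKM to 0.436, 0.396 and 0.691 FPKM and was not called in U937 (2.97 for the line difference). NINJ2, an adhesion protein, likewise fell in IMS-M2 alone, from 161, 197 and 234 FPKM to 18.8, 18.3 and 20.2 FPKM, with 10.7, 6.85 and 7.55 FPKM before and 7.67, 7.11 and 9.23 FPKM after OTX in U937 (3.25). SLA, an adaptor of receptor signalling in a locus with another annotated gene, fell in both lines, with log2 changes of -3.62 and -0.61 (3.01).

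PTPRC, the pan-leukocyte phosphatase CD45, and ITGAM, the integrin chain CD11b, were among the genes called in opposite directions. PTPRC went from 51.3, 58.5 and 57.6 FPKM to 22.4, 25.3 and 22.2 FPKM in IMS-M2 and from 44.3, 39.5 and 35.0 FPKM to 80.4, 94.8 and 102 FPKM in U937. ITGAM went from 7.31, 6.50 and 7.94 FPKM to 2.23, 1.89 and 2.47 FPKM in IMS-M2 and from 4.56, 3.90 and 3.99 FPKM to 10.99, 10.8 and 11.6 FPKM in U937. With DMSO the IMS-M2 libraries stood above those of U937 for both genes, and with OTX the order was reversed without overlap, in separately deposited tables; the line differences were 2.43 and 2.61.

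Of the monocyte and macrophage identity genes expressed in both lines, most had a higher line difference, but only 4 were called down in IMS-M2 and up in U937. Only 9 of the 28 listed genes were kept, so the kept ones are not the whole list. OTX lowered 8 of the 9 in IMS-M2, with a median of -1.37, and in U937 raised 5 and lowered 3, with a median of 0.56. The line difference was higher for 8 (88.9%, against 22.8% of all kept genes) and lower for none. Its median was 1.69, or 0.93 with a pseudocount of 5. TYROBP, the signalling adaptor of activating myeloid receptors, went from 10.6, 9.05 and 9.04 FPKM to 2.21, 2.29 and 2.66 FPKM in IMS-M2 and from 47.5, 49.3 and 39.1 FPKM to 76.1, 66.8 and 58.96 FPKM in U937 (2.201). ITGAX, the integrin chain CD11c, fell from 1.34, 1.16 and 1.23 FPKM to 0.0386, 0.0602 and 0.0319 FPKM in IMS-M2 and rose from 2.12, 1.88 and 1.93 FPKM to 4.34, 4.21 and 3.56 FPKM in U937 (1.86, or 4.22 and 0.68 with pseudocounts of 0.1 and 5). CTSS, the protease cathepsin S, fell in both lines, with log2 changes of -2.93 and -0.65 (2.27). Over all 28 genes, the summed level was 582 to 914 FPKM with DMSO and 242 to 262 FPKM with OTX in IMS-M2, and 1169 to 1297 FPKM and 876 to 925 FPKM in U937, so the sum fell in both lines without overlap.

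SPI1 encodes PU.1, the master transcription factor of the myeloid lineage. It fell from 84.3, 79.0 and 91.9 FPKM to 12.5, 10.1 and 11.5 FPKM in IMS-M2 and from 139, 139 and 139 FPKM to 102, 92.7 and 88.7 FPKM in U937. Both falls were without overlap, by -2.80 and -0.55, a line difference of 2.25 with an SE of 0.13 (limma, Benjamini-Hochberg adjusted p = 1.1e-07). The PU.1 motif GAGGAAGT, searched on both strands, was present in 24 of 431 matched promoters of genes with a difference of at least 1 (5.57%), in 13 of 287 of those with a difference of -1 or below (4.53%), in 12 of 292 of those that rose in U937 and fell in IMS-M2 (4.11%), and in 208 of 8006 kept promoters (2.6%). It was present in 3 of 51 ribosome biogenesis promoters (5.88%) and 4 of 63 cytosolic ribosomal protein promoters (6.35%). One monocyte gene of the 5 matched held it, TYROBP, at chr19:35908289-35908318 (minus strand, 12 bases before the RefSeq start, GRCh38.p14), where it reads as its reverse complement, in capitals.
TYROBP: acccgcctcagACTTCCTCcttcacttgcc

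Other blood cell transcription factors were split. Of 19 kept, the difference was higher for 7 (36.8%, against 22.8% of all kept genes) and lower for 6 (31.6%, against 21.6%). IKZF1, the lymphoid and myeloid regulator Ikaros, fell from 24.03, 24.6 and 27.5 FPKM to 13.5, 13.3 and 13.9 FPKM in IMS-M2 and rose from 34.1, 32.7 and 31.6 FPKM to 46.3, 48.1 and 52.9 FPKM in U937 (1.42). RUNX3 (1.35) and LMO2 (1.25) had the same opposite directions. NFE2, an erythroid and megakaryocyte factor, was not called in IMS-M2 (0.21) and fell in U937 by 1.19 on the log2 scale (-1.40), and ID1, an inhibitor of basic helix-loop-helix factors, rose in IMS-M2 from 28.5, 24.5 and 24.5 FPKM to 60.3, 54.2 and 56.6 FPKM and was not called in U937 (-1.36). HOX genes and their cofactors, a programme typical of NPM1-mutated AML, had 9 kept members. With OTX 4 rose and 2 fell in IMS-M2, with a median log2 change of 0.28. In U937 6 rose and none fell, with a median of 0.74. Over all kept genes 28% rose and 29.5% fell in IMS-M2, and 29% rose and 27.3% fell in U937. MEIS1, a HOX cofactor, stood at 22.4, 27.9 and 31.9 FPKM and then 27.2, 27.4 and 29.2 FPKM in IMS-M2, which overlapped, and rose from 42.6, 34.2 and 34.3 FPKM to 88.6, 97.996 and 113 FPKM in U937 (1.37). The HOX difference was higher for 5 (55.6%, against 22.8% of all kept genes) and lower for none, with a median of 0.51. The median was 0.21 without DMSO library 1 of U937 and 0.92 without genes that share a locus. It was 0.14 over genes with DMSO means of at least 5 FPKM. The HOXB genes, which IMS-M2 expresses, could not enter: 8 of them were listed at 0 in U937 with DMSO.

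Of the NF-kB pathway and its cytokines, 4 of 19 kept genes had a higher difference (21.1%) and 7 a lower one (36.8%). Over all kept genes 22.8% were higher and 21.6% lower. The median was -0.27, or -0.035 without genes that share a locus and -0.088 with the within-group component removed. The subunit REL was higher (0.53), and the 7 lower genes included other subunits and inhibitors of the pathway. REL lost its call with quantile normalization, with all 24 libraries fitted and with the component removed. RELB, a subunit, rose from 6.33, 5.64 and 4.67 FPKM to 18.6, 14.5 and 14.8 FPKM in IMS-M2 and fell from 4.14, 4.42 and 4.59 FPKM to 3.41, 2.77 and 2.59 FPKM in U937 (-1.84), and NFKB2 (-1.30) and the inhibitor TNFAIP3 (-1.26), whose locus is shared, had the same opposite directions. NFKBIA, the inhibitor that holds NF-kB in the cytoplasm, rose by 1.07 in IMS-M2 and was not called in U937 (-1.001). The inflammatory genes IL1B (2.70) and TNFAIP2 (2.40) were higher. IL1B, an inflammatory cytokine, fell from 18.1, 22.6 and 23.8 FPKM to 11.2, 11.1 and 11.4 FPKM in IMS-M2 and rose from 2.31, 1.19 and 1.37 FPKM to 7.34, 7.42 and 10.1 FPKM in U937. FOS, a subunit of the immediate early factor AP-1, fell by 1.38 in IMS-M2 and rose by 0.84 in U937 (2.22).

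The survival kinase PIM2 and the BCL2 family genes BCL2L1 and BIK were called in opposite directions. PIM2 rose from 31.5, 28.6 and 36.0 FPKM to 139, 121 and 150 FPKM in IMS-M2 and fell from 15.2, 16.6 and 16.6 FPKM to 13.5, 12.3 and 12.3 FPKM in U937, a line difference of -2.38 (limma, Benjamini-Hochberg adjusted p = 1.74e-07). Its relative PIM1 rose by 1.62 in IMS-M2 and 1.67 in U937, and its line difference of 0.05 was not called; it was called, at 0.54, with the within-group component described below removed. BCL2L1, which encodes the apoptosis inhibitor BCL-XL, rose from 74.4, 62.2 and 66.4 FPKM to 148, 127 and 152 FPKM in IMS-M2 and fell from 29.6, 28.9 and 32.3 FPKM to 18.9, 18.6 and 17.3 FPKM in U937 (-1.76). The death-promoting BIK did the reverse, from 4.48, 3.96 and 4.12 FPKM to 1.30, 0.858 and 1.18 FPKM in IMS-M2 and from 4.68, 7.14 and 7.75 FPKM to 13.9, 11.9 and 11.6 FPKM in U937 (2.16). None of these groups overlapped within a line. BMF, another death-promoting member, rose in U937 alone (1.03). Over the 15 kept BCL2 family genes the difference was higher for 4 (26.7%) and lower for 5 (33.3%), with a median of -0.15. Over all kept genes 22.8% were higher and 21.6% lower.

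Called differences in the interferon, antigen presentation and lysosome lists were more often higher than lower; over all kept genes 22.8% were higher. Of 18 kept interferon response genes, 10 had a higher difference and 2 a lower one, with a median of 0.44. IRF1, an interferon-induced activator, stood at 10.6, 11.6 and 13.8 FPKM and then 13.4, 12.9 and 14.9 FPKM in IMS-M2, which overlapped, and rose from 3.53, 2.83 and 2.99 FPKM to 11.4, 9.42 and 11.1 FPKM in U937 (1.31). Of 12 MHC class I and peptide loading genes, 6 had a higher difference and none a lower one, with a median of 0.32, or 0.18 without genes that share a locus; CALR, the chaperone calreticulin, fell by 1.07 in IMS-M2 and was not called in U937 (1.32). Of 44 lysosome and autophagy genes, 19 had a higher difference and 2 a lower one, with a median of 0.18. CTSZ, the protease cathepsin Z, fell from 12.1, 14.7 and 17.4 FPKM to 3.83, 3.84 and 4.31 FPKM in IMS-M2 without overlap, and stood at 397, 287 and 331 FPKM and then 362, 351 and 407 FPKM in U937, where the groups overlapped and the change was not called (1.80).

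**Figure D4:**
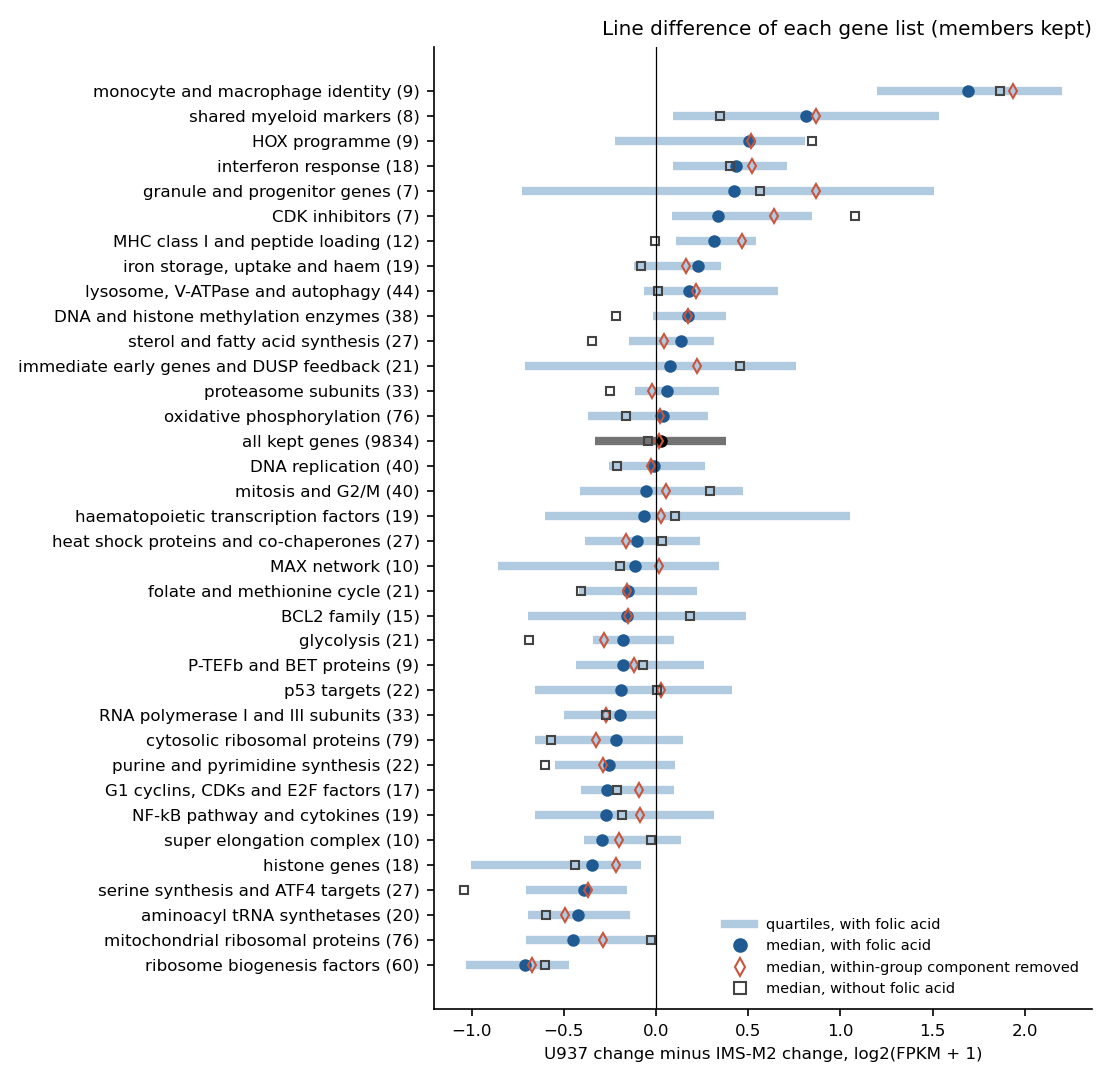
Median line difference (filled circles) and quartiles (bars) in log2(FPKM + 1) for the gene lists with at least 7 kept members, whose number stands in brackets, and for all kept genes in black; open symbols give the median with the within-group component removed and without folic acid. Ribosome biogenesis factors sit lowest at -0.71 and the monocyte and macrophage genes highest at 1.69, and their 3 medians lie on the same side of 0.

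Some genes responded alike. DUSP6, the phosphatase that restrains ERK signalling, rose from 37.6, 38.2 and 37.2 FPKM to 146, 150 and 145 FPKM in IMS-M2 and from 21.4, 21.1 and 19.4 FPKM to 87.8, 78.2 and 75.8 FPKM in U937. The rises were 1.93 and 1.91, and the line difference was -0.02 with an SE of 0.10 (limma, Benjamini-Hochberg adjusted p = 0.868). IRF7, an interferon response factor, rose by 2.57 and 2.67, CDKN2D, a cyclin-dependent kinase inhibitor, by 1.78 and 2.02, and HIST1H2BK, a core histone gene in a shared locus, by 1.49 and 1.502. Among genes that fell in both, CCL2, a monocyte chemokine, had log2 changes of -2.01 and -2.28, and PLD6, a mitochondrial lipase, -2.08 and -1.99. With a pseudocount of 5 the line differences of CDKN2D, at 0.51, and CCL2, at -0.33, were called. PLAC8, a myeloid protein of uncertain function, fell from 18.9, 17.5 and 12.8 FPKM to 0.0833, 0.227 and 0.179 FPKM in IMS-M2 and from 18.1, 21.7 and 20.9 FPKM to 1.01, 1.27 and 0.549 FPKM in U937, a line difference that was not called at a pseudocount of 1 and was called, at 1.65, with a pseudocount of 0.1. In all, 1903 genes (19.4% of kept genes) were called in the same direction in both lines without a called difference, which does not show that their responses were equal.

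Several of the largest negative differences belonged to genes that varied within groups. HES6, a transcriptional regulator, stood at 7.93, 4.65 and 4.09 FPKM and then 17.9, 16.8 and 16.2 FPKM in IMS-M2 and at 41.0, 90.5 and 88.1 FPKM and then 61.3, 38.8 and 28.4 FPKM in U937, with the U937 groups overlapping (-2.24). FAM60A (-2.16), TMEM183A (-2.48), PINX1 (-1.89) and H3F3A (-2.42) lie in loci with other annotated genes; MPLKIP (-2.01) and CCDC85B (-2.10) do not. The libraries that stood apart were not the same in all of them. In H3F3A it was DMSO library 3 of IMS-M2, at 6.31 FPKM beside 18.8 and 23.3 FPKM, and in CCDC85B the DMSO libraries had 65.9, 33.9 and 26.1 FPKM in IMS-M2 and 32.0, 60.3 and 63.5 FPKM in U937. LOC100507118, in a shared locus, was uneven in the other direction (2.42). TARP, a T-cell receptor gamma transcript expressed outside T cells, was even, falling from 32.0, 42.5 and 39.2 FPKM to 25.5, 28.7 and 29.4 FPKM in IMS-M2 and from 51.9, 46.3 and 38.1 FPKM to 4.29, 5.62 and 5.27 FPKM in U937 (-2.51).

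Part of the within-group variation followed one axis. The leading component of the within-group residuals held 40% of their variance in the libraries with folic acid and 41.3% in those without, and the 2 sets of gene loadings had a Pearson's r of 0.765 across kept genes. Scored with the loadings of the libraries without folic acid, the 3 DMSO libraries of IMS-M2 stood at -7.10, 9.64 and 19.5 and its OTX libraries at -7.12, -8.98 and -5.96, while the DMSO libraries of U937 stood at 4.53, -13.7 and -11.8 and its OTX libraries at -4.78, 6.14 and 19.6. OTX libraries thus scored below 2 of the 3 DMSO libraries in IMS-M2 and above 2 of the 3 in U937, opposite shifts that add up in the line difference, and the loadings had an r of 0.449 with it across genes. What the component reflects was not tested. It was removed from values centred on each line and not on each group, so OTX changes that lay along it were removed too. With it projected out, an alternative chosen after the data were seen, 4618 genes were called (2438 higher, 2180 lower), and differences of at least 1 numbered 497 higher and 161 lower instead of 566 and 367. Of the genes first called, 1938 of 2239 higher and 1658 of 2129 lower were still called in the same direction. MYC was then -2.39, PIM2 and TARP stayed called, HEXIM1 was -0.60, RPS25 -1.27, RPL24 -1.48 and CCDC85B -0.84, and the ribosome biogenesis median was -0.67 with 54 of 60 lower.

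The same contrast in the 12 libraries grown without folic acid, none of which entered the values above, gave 3746 called genes (38.1% of the 9830 kept genes fitted there). Of the 566 genes with a called difference of at least 1 with folic acid, 484 (85.5%) had the same sign and 373 were called in the same direction without it. Of the 367 at -1 or below, 185 (50.4%) had the same sign and 94 were called in the same direction. Across genes the r was 0.257. With the component removed from both sets, each with loadings from the other, it was 0.614. Then 98.4% of higher and 89.4% of lower differences of at least 1 kept their sign. That removal takes OTX changes along the component out of both sets, so the values before and after it are not like for like. Without folic acid the line difference was -2.46 for MYC, -2.41 for PIM2, 3.04 for IRF5 and 2.11 for TYROBP, none of which was called for a difference between the media, and 3.20 for ECM1 and 3.10 for ANPEP, both of which were. HEXIM1 had -0.01 and RPS25 had 1.29, neither of them called, while RPL24 had 0.92, which was called.

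**Figure D5:**
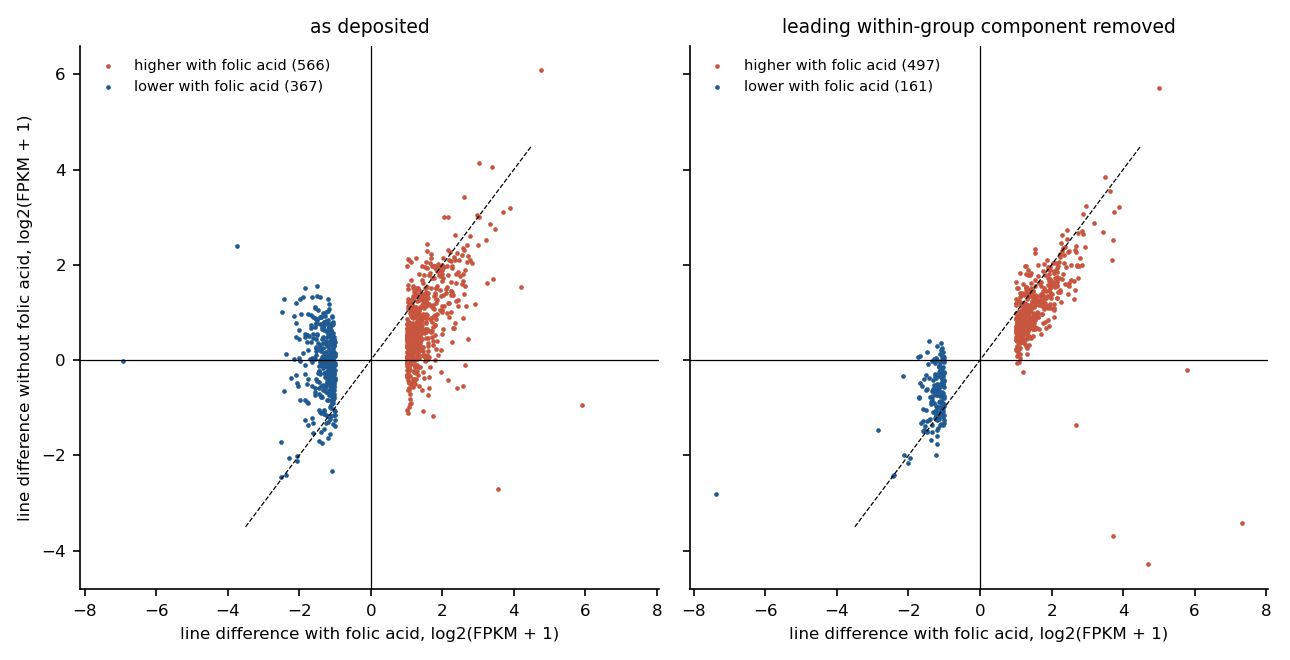
Line difference with folic acid (horizontal axis) against that without (vertical axis), in log2(FPKM + 1), for genes with a called difference of at least 1 with folic acid, as deposited (left) and with the leading within-group component removed (right). On the left the 566 higher genes lie mostly above 0, as 85.5% of them do, while the 367 lower genes are spread on both sides, with 50.4% below 0; on the right 98.4% of 497 and 89.4% of 161 keep their sign.

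Among lists, the median without folic acid was -0.60 for ribosome biogenesis factors, with 41 of 60 lower, 1.86 for monocyte and macrophage genes, with 7 of 9 higher, and -1.04 for serine synthesis and the ATF4 response, with 22 of 27 lower and none higher. For mitochondrial ribosomal proteins it was -0.03, for interferon response genes 0.40, for lysosome genes 0.01 with 13 higher and 6 lower, and for MHC class I and peptide loading genes -0.0079 with 1 higher and 4 lower. A test of the difference between the media, in a model of all 24 libraries, called 3754 kept genes (38.2%).

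Whether the line difference went with the starting level was read from the DMSO libraries without folic acid, which share no library with the response; levels come from separately deposited tables. Of genes with a higher difference, 59.3% had a higher DMSO level in U937 than in IMS-M2, against 38.7% of genes with a lower difference and 51% of all kept genes. Read from the DMSO libraries with folic acid, which also enter the response, the shares were 41.1% and 64%.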

How the data were processed

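Gene-level FPKM values were used as the authors deposited them, in 1 table per line and medium. TopHat2 (2.1.1), Cuffdiff (2.2.1), bcl2fastq (2.17.1.14) and the build hg19 are listed in the submitters' processing notes, without role or order, and the headers name no unit. FPKM divides by transcript length and library total, so a gene's value also moves with the rest of its library. Whether counting used strand is not given in the sources used here; 2511 kept genes share a locus with another annotated gene. A pseudocount of 1 was added and log2 values were fitted with limma 3.58.1 (R 4.3.3; 4 group means, intensity trend). Benjamini-Hochberg adjustment ran over the 12022 genes for which any group's mean reached 1 FPKM, and calls were made at 0.05. In simulated data of that size, 76% of 100 planted log2 differences of 1 and 25% of 100 of 0.5 were recovered, with 7.34% false calls. The simulated noise was independent between genes and held no shared component, and far fewer differences were planted than were called in the libraries. These rates may therefore not hold for the libraries.

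Genes were named by a rule: MYC, HEXIM1, SERPINI1, BCL2, CDK6, BRD2 and CDKN1A; the 10 highest and 10 lowest called differences with at least 5 FPKM in both lines and no overlap in 1; the 6 largest opposite changes of each kind; the 5 largest shared changes of each direction; and up to 4 members of each list per direction. Small RNA symbols stayed out. The members and lists were chosen with earlier results of these data known.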

Additional observations from a re-analysis of the deposited data

Results flagged for a closer look

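The contrasts between the lines were singled out because the response to OTX differed between them by the test of the difference itself: 4368 kept genes were called, 933 of them with a log2 difference of at least 1, and 608 genes were called in opposite directions. The line difference was also called as different between the media for 3754 kept genes, by the test over all 24 libraries. Each medium has its own libraries and deposited tables, so folic acid cannot be told apart from other differences between these sets. Among the 40 kept genes named by the first 4 parts of the rule for naming genes, 23 were called in that test.

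Values here are the line difference with folic acid minus that without, on the log2(FPKM + 1) scale (limma, Benjamini-Hochberg adjusted p below 0.05). Among genes with a line difference above 0 with folic acid, it exceeded that without by 2.66 for CD53, 1.72 for S100A6, 1.63 for NINJ2. The excess was 1.23 for ITGAM, 0.71 for ECM1, 0.71 for LAIR1, 0.60 for SLA, 0.59 for ANPEP and 0.59 for PTPRC. LOC100507118 had 3.001. CDKN1A, whose rise differed more between the lines without folic acid, had -0.93, and CDKN2D and PLD6 had 0.83 and 0.62.

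Among genes with a line difference below 0 with folic acid, the value was -3.71 for RPS25, -3.48 for TMEM183A and -3.05 for RPL24. It was -2.64 for MPLKIP, -2.59 for CCDC85B, -2.17 for FAM60A, -2.04 for PINX1, -1.86 for HES6, -1.06 for HEXIM1 and -0.60 for BCL2. For RPS25, TMEM183A, RPL24, MPLKIP, CCDC85B, FAM60A and PINX1 the line difference was above 0 without folic acid. It was called there for RPL24 but not for RPS25, TMEM183A, CCDC85B or FAM60A. With the leading within-group component removed, an alternative chosen after the data were seen, 20 of the 23 values lay nearer 0 by over 1.5 times. The removal also takes out OTX changes along the component, and the difference between the media was not tested on that scale. The value was then -0.17 for HES6, -0.27 for HEXIM1, -0.29 for CCDC85B, -0.37 for BCL2, -0.90 for MPLKIP, -0.90 for PINX1, -1.09 for FAM60A, -1.29 for RPS25, -1.65 for RPL24 and -1.82 for TMEM183A. Among those above 0, it was 0.075 for SLA, 0.16 for LAIR1, 0.16 for PTPRC, 0.80 for S100A6, 0.84 for NINJ2 and 1.59 for CD53, while ECM1, at 0.68, and ANPEP, at 0.64, kept near their first values.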

How the results depend on the processing

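Across 254 named genes and 35 lists, reversals of a called named gene were limited to RPLP1, at -0.42 with quantile normalization within tables, and H3F3B, at -0.091 with the component removed, an alternative chosen after the data were seen; the cause was not tested. The count of log2 differences of at least 1 was 471 with a pseudocount of 5, which moved 48 called named genes by over 1.5 times with their calls kept, as removing the component did for 39. Leaving out 1 library gave 3516 (without U937 DMSO library 2) to 4895 called differences, 762 to 1156 of at least 1 and 409 to 743 opposite. It gave 4897 to 5736 genes in IMS-M2, 4812 to 5792 in U937 and 2962 to 4426 without folic acid. For the difference between the media it gave 2718 to 4552. With DMSO levels from the libraries that enter the response, the shares higher in U937 were 41.1% and 64%. The replicate block gave 4112 called differences, 3916 of them among the first 4368, and 609 opposite genes; same-numbered libraries had residual correlations of 0.134, 0.469 and 0.162 in IMS-M2 and -0.35, 0.165 and -0.316 in U937, so the numbers may pair the IMS-M2 libraries but not those of U937. The block ended the call of 17 named genes and gave 5449 genes in IMS-M2. Removing trends with GC and length called 5326 genes, and leaving out genes that share a locus called 3264. Median signs changed for the MAX network, p53, mitosis, haematopoietic factor and proteasome lists with the component removed, so no direction is given for these.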
